A study of Mus musculus with 8 samples.

Results

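The genes described here encode 7 leukocyte adhesion molecules that are not integrins: Icam1, Vcam1, Pecam1, F11r, Cd44, Selplg and Alcam. They were chosen by name, as immunoglobulin-type, selectin-ligand and hyaluronan-binding adhesion molecules, from the 17364 genes of the files. Earlier results of these data were known when they were chosen. All 7 were present and passed the filter on low counts, which left 12462 genes for testing. RNA came from bone-marrow-derived macrophages, grown from mouse marrow, of Sept2C111A mice and of wild-type mice, with 4 libraries of each genotype. Sept2C111A names an allele of the septin 2 gene in which the cysteine at residue 111 is replaced by alanine. The study asks about S-nitrosylated septin 2 in the inflammation and migration of macrophages. TNF-α (30 ng/ml, 24 h) was present in all 8 cultures, so the genotypes are compared under TNF-α and the response to it is not measured. The labels give neither the strain and age of the mice nor whether the 4 libraries of a genotype came from separate animals, so the p-values speak of the spread among these 8 libraries, which may be technical. Each library is a whole culture, in which fewer cells of a type and less RNA per cell cannot be told apart.

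Leukocytes leave the blood in steps. Selplg encodes PSGL-1, the sialylated mucin on leukocytes that binds selectins during rolling. Firm arrest follows when leukocyte integrins bind ICAM-1 and VCAM-1, immunoglobulin-type proteins whose genes NF-κB switches on in endothelium and macrophages exposed to TNF. PECAM-1 (Pecam1) and JAM-A (F11r) sit at cell borders, where they bind their own kind and take part in the passage of leukocytes between endothelial cells. CD44 binds hyaluronan in the matrix, and ALCAM (Alcam) binds itself and CD6 on T cells.

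Icam1 was the one member whose RNA was called lower in Sept2C111A cultures and Pecam1 the one called higher, while the other 5 did not pass the test. Icam1, the member with the highest level, fell by 21.2%, whereas Pecam1 had few reads. Of the 7, 2 were called at an adjusted p under 0.05 in edgeR's quasi-likelihood test, with Benjamini-Hochberg adjustment over all tested genes. Over all tested genes, 6.46% were called, 3.03% lower and 3.43% higher. At an unadjusted p under 0.05, 4 of the 7 (Icam1, Vcam1, Pecam1 and Selplg) and 24.8% of all tested genes passed. The median log2 fold change of the 7 was -0.05, against 0.01 over all tested genes. Neither call held in every alternative fit, as given beside each gene.

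Of the 7, RefSeq promoter sequence was at hand for Icam1, F11r, Cd44 and Alcam; Vcam1, Pecam1 and Selplg had no entry. The Icam1 sequence is shown because Icam1 was called lower together with several other NF-κB target genes, described further on. It covers the 250 bases before the RefSeq start on the plus strand, chr9:21015690-21015939 (GRCm38, the mm10 build), and the capitals mark matches to GGNNNTTCC on either strand, a short form of the NF-κB binding motif.

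Icam1 upstream: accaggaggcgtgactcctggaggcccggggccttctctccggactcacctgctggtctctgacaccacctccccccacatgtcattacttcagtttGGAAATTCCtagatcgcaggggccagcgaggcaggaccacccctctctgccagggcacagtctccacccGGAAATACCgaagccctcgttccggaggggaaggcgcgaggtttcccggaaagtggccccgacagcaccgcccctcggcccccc

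The first match, GGAAATTCC, begins at position -153 from the RefSeq start and matches on both strands, and the second, GGAAATACC, begins at position -84 and matches on the minus strand. GENCODE places the start of the gene 45 bases further downstream. The same 9 bases as in the first Icam1 match occur in the promoter of Nfkbia, the NF-κB inhibitor gene that was called lower in the same libraries, at position -29 from its RefSeq start. The aligned windows of 29 bases, for Icam1 at chr9:21015777-21015805 (plus strand) and for Nfkbia at chr12:55492658-55492686 (minus strand), show that the flanks differ.
Icam1 window: acttcagtttGGAAATTCCtagatcgcag
Nfkbia window: tgactggcttGGAAATTCCccgcgcctga
Of 32851 RefSeq promoters searched over the same 250 bases, 15.7% held at least 1 match and 1.46% held 2 or more. The Nfkbia promoter held 3 matches in all, at positions -211, -178 and -29. F11r, Cd44 and Alcam had none in this window. Nfkbia was called lower with the smallest adjusted p of the listed NF-κB targets. The promoters of the other listed targets were not looked up by name, so the shared bases cannot be set against the calls. The part of NF-κB in the Icam1 difference was not tested.

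Icam1, on chromosome 9 at 21015940 to 21028814, encodes the ligand of the leukocyte integrins LFA-1 and Mac-1. It was measured at 723, 867, 686 and 675 CPM (reads of a gene scaled so that libraries of different depth can be compared) in Sept2C111A libraries 1 to 4, against 918, 978, 916 and 931 CPM in wild-type libraries 1 to 4. Every Sept2C111A library lay below every wild-type library, and Sept2C111A library 2 lay nearest to the wild-type values. The mean was 738 ± 88.5 CPM in Sept2C111A and 936 ± 28.8 CPM in wild type (SD, n = 4 each, as in all values given with ±). The log2 fold change was -0.34 (SE 0.084, 95% interval -0.53 to -0.16), with an adjusted p of 0.0359 in edgeR. Permuting the genotype labels over log2 CPM (exact test, two-sided, made once for each of the 7 genes) gave p = 0.0286, the smallest value possible with 4 libraries a group. The fold change stayed between -0.48 and -0.30 in 20 alternative fits, whose adjusted p ran from 0.00271 to 0.129. With 1 library left out, the adjusted p was 0.0957 to 0.11 for each of the 4 wild-type libraries, and 0.0642 and 0.0599 for Sept2C111A libraries 1 and 3.

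Vcam1, on chromosome 3 at 116110020 to 116129688, encodes the ligand of the integrin α4β1. Its values were 88.0, 67.1, 51.8 and 89.5 CPM in Sept2C111A libraries 1 to 4 and 102, 108, 105 and 94.5 CPM in wild-type libraries 1 to 4. The groups did not overlap, but libraries 1 and 4 of Sept2C111A came close to the lowest wild-type library, while libraries 2 and 3 lay well below. The mean was 74.1 ± 18.0 CPM in Sept2C111A against 102 ± 6.03 CPM in wild type. The coefficient of variation among Sept2C111A libraries, 24.3%, was the widest of the 7 genes, where wild-type libraries had 5.89% and counting error alone gives 2.33%. The log2 fold change was -0.47 (SE 0.147, 95% interval -0.79 to -0.14) and did not pass, at an adjusted p of 0.0821 in edgeR. The exact permutation test gave p = 0.0286.

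Vcam1 is made by fibroblast-like stromal cells as well as by macrophages, and the summed markers of such cells were also lower in Sept2C111A. The part of stromal cells in the Vcam1 difference was not tested. The 14 stromal markers, collagen genes among them, summed to 3725 to 4743 CPM in Sept2C111A libraries and 4768 to 6130 CPM in wild-type libraries. Of the 13 that were tested, 4 were called lower, where 3.03% of all tested genes were, and 0 higher. All 13 had a negative log2 fold change. Col1a1, the most abundant of them, averaged 1540 ± 168 CPM in Sept2C111A against 2060 ± 257 CPM in wild type (log2 fold change -0.41, adjusted p 0.0453 in edgeR). Their mean log2 CPM was 5.92, 5.45, 5.41 and 5.96 in Sept2C111A libraries 1 to 4, and 6.30, 6.05, 6.27 and 6.10 in wild-type libraries 1 to 4. Within Sept2C111A, Vcam1 and this marker level stood in the same order, library 3 lowest and library 4 highest. They did not in wild type, where library 2 had the lowest marker level, 6.05, and the highest Vcam1 level, 108 CPM. Every Sept2C111A library had a lower marker level than every wild-type library, so in all fits with this covariate the marker level and the genotype cannot be fully told apart. With the marker level as a covariate, the log2 fold change of Vcam1 was -0.02 (SE 0.142), that of Icam1 -0.48 (SE 0.119) and that of Pecam1 0.50 (SE 0.187). None of the 3 passed in that fit, which called 62 genes in all, and the adjusted p was 0.97, 0.129 and 0.389. On the first principal component of all genes (45.1% of the variance), Sept2C111A libraries 2 and 3 stood apart at 28.2 and 36.6, with the other 6 libraries between -19.4 and 0.866. Without these 2, the log2 fold change was -0.21 for Vcam1 (adjusted p 0.141) and -0.42 for Icam1 (adjusted p 0.00339). Over all alternatives the adjusted p of Vcam1 ran from 0.0208 to 0.97, and it passed under DESeq2, under limma voom with sample weights and without Sept2C111A library 4.

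**Figure D1:**
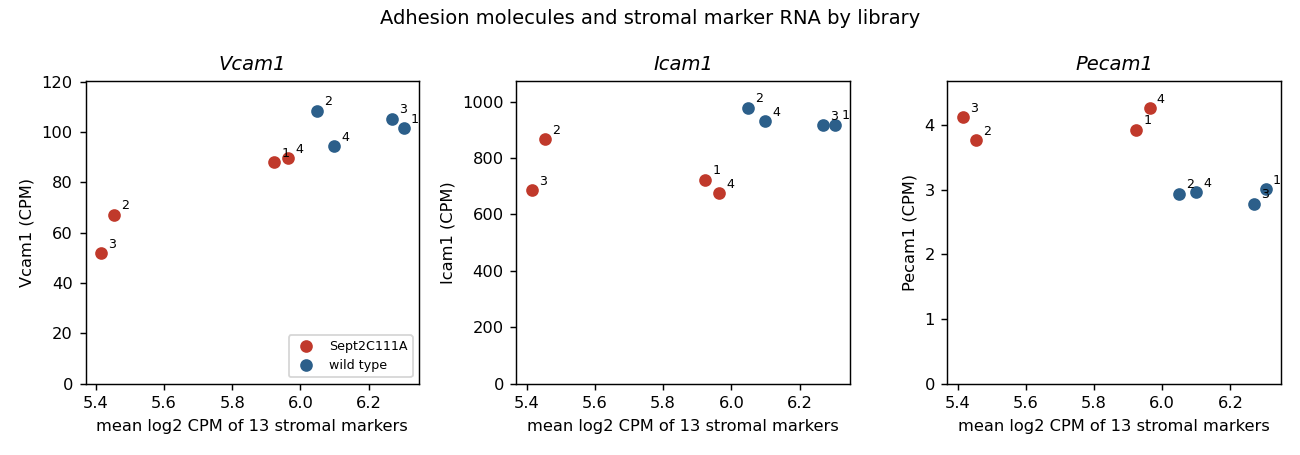
Vcam1, Icam1 and Pecam1 levels (CPM, y axes from 0) against the mean log2 CPM of 13 stromal marker genes (x axis), 1 numbered point per library, Sept2C111A in red and wild type in blue. Vcam1 was lowest, at 51.8 and 67.1 CPM, in the 2 libraries with the least stromal marker RNA, while the 4 Sept2C111A values of Icam1 and Pecam1 do not follow that order. The wild-type values of Vcam1 do not follow the marker order either.

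Pecam1, on chromosome 11 at 106654213 to 106715281, encodes an inhibitory receptor of leukocytes, platelets and endothelium. It rested on 83, 71, 81 and 90 reads in Sept2C111A libraries 1 to 4 and on 63, 63, 59 and 62 reads in wild-type libraries 1 to 4. These reads correspond to 3.93, 3.76, 4.12 and 4.26 CPM in the Sept2C111A libraries and to 3.01, 2.94, 2.78 and 2.96 CPM in the wild-type libraries. All Sept2C111A libraries lay above all wild-type libraries. The coefficient of variation was 5.38% in Sept2C111A and 3.31% in wild type, less than the 11.8% that counting error alone gives at this depth. The SDs beside the means, 4.02 ± 0.216 CPM in Sept2C111A and 2.92 ± 0.0968 CPM in wild type, therefore understate the error. The log2 fold change was 0.46 (SE 0.119, 95% interval 0.20 to 0.72), with an adjusted p of 0.0450 in edgeR. The exact permutation test gave p = 0.0286.

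The Pecam1 call passed in 7 of 20 alternatives, with an adjusted p of 0.0365 to 0.389 and a fold change of 0.40 to 0.50 throughout. With 1 library left out it held only without Sept2C111A library 4 (0.0486), and the other 7 fits gave 0.0572 to 0.142. It was also lost without Sept2C111A libraries 2 and 3 (0.103), with no filter on low counts (0.0621), with no normalization factor (0.0772) and with the 20 most abundant genes left out of library size (0.0588). Markers of endothelium, another source of Pecam1, all averaged below 1 CPM. The 10 of them summed to 2.59 to 3.60 CPM in Sept2C111A libraries and 1.96 to 2.72 CPM in wild-type libraries, and 3 were tested, none of them called. Of those 3, Egfl7 had a positive log2 fold change of 0.86 with no overlap, at 0.775 ± 0.178 CPM in Sept2C111A against 0.426 ± 0.0589 CPM in wild type (adjusted p 0.0853 in edgeR). Kdr had one of 0.32 and Cdh5 one of -0.51, both with overlap (adjusted p 0.595 and 0.346). Emcn, too low to be tested, lay at 0.426 to 0.898 CPM in Sept2C111A against 0.187 to 0.43 CPM in wild type. The part of endothelial cells in the Pecam1 difference was not tested. The endothelial cadherin gene Cdh5 lay at 0.305 to 0.757 CPM in Sept2C111A against 0.56 to 0.811 CPM in wild type, and the receptor gene Tek at 0 to 0.053 CPM in Sept2C111A against 0 to 0.0477 CPM in wild type. Among platelet and megakaryocyte markers, Gp9 had no read in any Sept2C111A library and 0 to 0.0466 CPM in wild-type libraries. The 5 present in the files summed to 3.66 to 8.51 CPM in Sept2C111A against 8.44 to 10.8 CPM in wild type. Ppbp, the most abundant of them, averaged 3.54 ± 1.50 CPM in Sept2C111A against 6.21 ± 1.06 CPM in wild type and was not called. A gene with no read lies below 0.142 to 0.159 CPM in Sept2C111A libraries and 0.14 to 0.143 CPM in wild-type libraries, the level of 3 counts, a limit that covers counting error only.

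**Figure D2:**
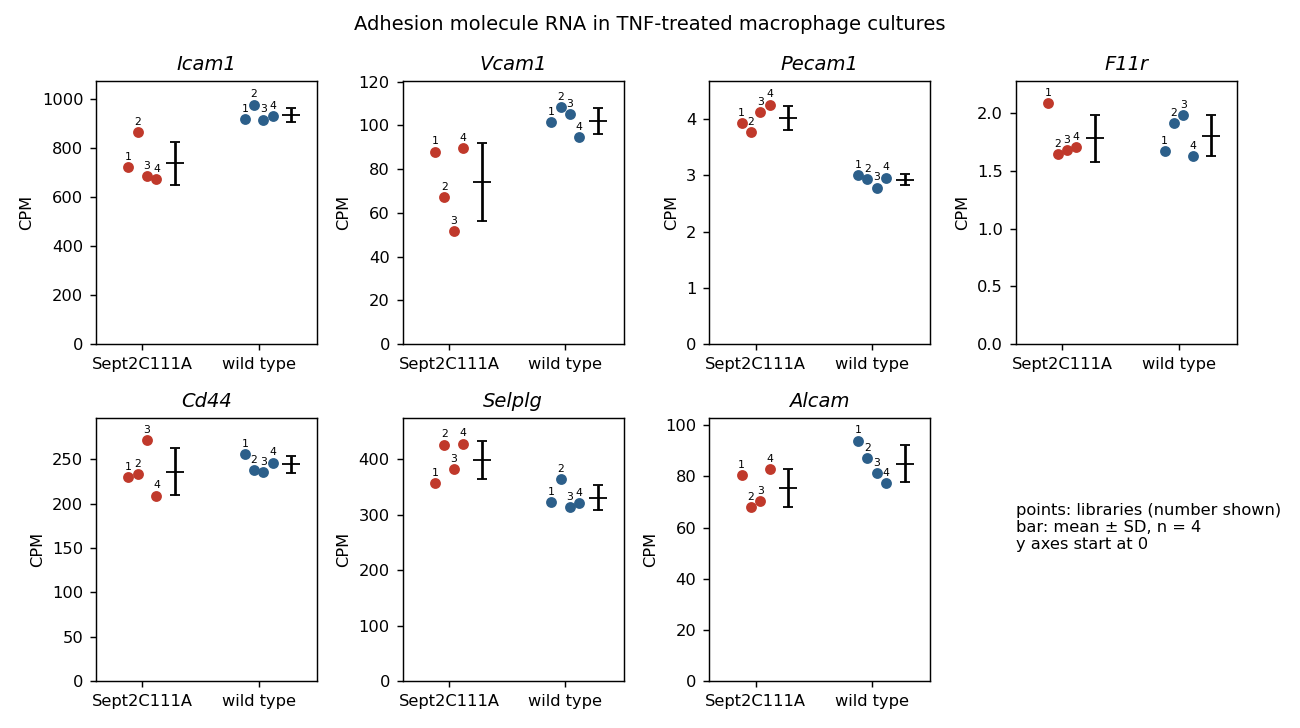
Level of each of the 7 adhesion molecule genes (CPM, y axes from 0) in the 4 Sept2C111A libraries (red) and the 4 wild-type libraries (blue), numbered points being libraries and bars the mean ± SD. Icam1 and Vcam1 lie lower and Pecam1 higher in Sept2C111A with no overlap, while the other 4 genes overlap.

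Selplg, on chromosome 5 at 113817798 to 113832528, was measured at 358, 427, 382 and 428 CPM in Sept2C111A libraries 1 to 4 and at 323, 364, 314 and 321 CPM in wild-type libraries 1 to 4. The groups touched, since wild-type library 2 lay just above Sept2C111A library 1. The mean was 399 ± 34.8 CPM in Sept2C111A against 331 ± 22.7 CPM in wild type, a log2 fold change of 0.27 (SE 0.0785, 95% interval 0.10 to 0.44) that did not pass, at an adjusted p of 0.0657 in edgeR. The exact permutation test gave p = 0.0571. Over the alternatives the adjusted p ran from 0.0181 to 0.584. It passed with DESeq2 (0.0181), with limma voom and sample weights (0.036) and without Sept2C111A library 1 (0.0384).

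Cd44, Alcam and F11r had intervals that included no difference. For Cd44, on chromosome 2 at 102811141 to 102901669, Sept2C111A libraries 1 to 4 had 230, 233, 272 and 209 CPM and wild-type libraries 1 to 4 had 256, 238, 235 and 246 CPM. The wild-type values fell inside the range of the Sept2C111A values, with a log2 fold change of -0.05 (95% interval -0.22 to 0.13, adjusted p 0.756 in edgeR). Alcam, on chromosome 16 at 52248996 to 52453081, had 80.6, 67.8, 70.3 and 82.9 CPM in Sept2C111A libraries 1 to 4 against 94.0, 87.3, 81.3 and 77.3 CPM in wild-type libraries 1 to 4. Its log2 fold change was -0.17 (95% interval -0.36 to 0.02, adjusted p 0.244 in edgeR), and it was 0.05 with the stromal markers as a covariate. F11r, on chromosome 1 at 171437561 to 171464593, rested on 31 to 44 reads in Sept2C111A libraries and 34 to 42 reads in wild-type libraries. Its mean was 1.78 ± 0.205 CPM in Sept2C111A and 1.80 ± 0.177 CPM in wild type, and the interval of its log2 fold change, -0.38 to 0.35, is too wide to exclude a change as large as that of Icam1. The exact permutation test gave p = 0.543, 0.143 and 0.971 for these 3 genes in the same order.

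In 3 of the 7 genes the genotypes did not overlap, where 16.9% of all tested genes had no overlap. Of the 3, 2 were lower and 1 higher in Sept2C111A, against 8.47% of all tested genes in each direction. The 2 least abundant, Pecam1 and F11r, exceeded 18.2% and 11.4% of tested genes in mean CPM, while Icam1 exceeded 98.9%. Antisense or small RNA genes are annotated within 3 members, Gm47079 in Icam1, Gm43109 in Vcam1 and Gm23731 in Cd44. The strandedness of the counting is not given in the sources used here, so reads from the opposite strand cannot be told apart.

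**Figure D3:**
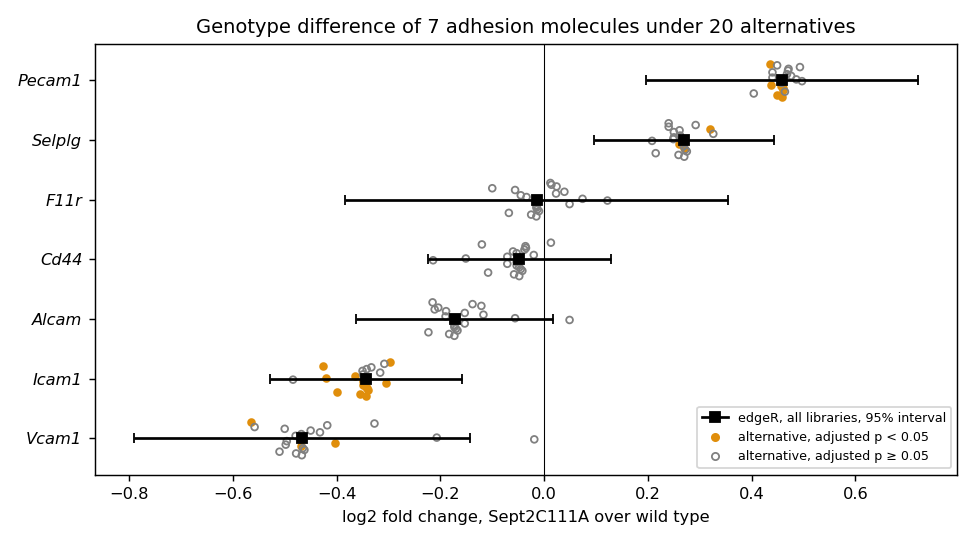
Log2 fold change (x axis, Sept2C111A over wild type) of the 7 genes, with black squares and 95% intervals for the edgeR fit of all 8 libraries and 1 circle for each of 20 alternative fits, orange where the adjusted p was under 0.05. Icam1 stays between -0.48 and -0.30 and Pecam1 between 0.40 and 0.50, while Vcam1 reaches -0.02 with the stromal marker covariate.

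Levels of different genes were compared per length, as CPM per kb of the longest annotated transcript. On this scale Icam1 stood first, with 291 ± 34.9 in Sept2C111A and 369 ± 11.4 in wild type. Selplg followed with 172 ± 15.0 in Sept2C111A and 143 ± 9.80 in wild type, and Cd44 with 42.0 ± 4.66 in Sept2C111A and 43.4 ± 1.66 in wild type. Vcam1 had 18.1 ± 4.41 in Sept2C111A and 25.1 ± 1.47 in wild type, and Alcam 12.5 ± 1.23 in Sept2C111A and 14.1 ± 1.21 in wild type. In Sept2C111A the libraries of Vcam1 (12.7 to 21.9) and Alcam (11.2 to 13.7) overlapped, whereas in wild type they did not. Pecam1 had 1.17 ± 0.0628 in Sept2C111A and 0.849 ± 0.0281 in wild type, and F11r 0.705 ± 0.0813 in Sept2C111A and 0.713 ± 0.0701 in wild type. The order within these last 2 pairs depended on the length used. Per kb of the union of all exons, Alcam stood above Vcam1 (10.6 and 8.35 in Sept2C111A, 11.9 and 11.5 in wild type). On that length F11r stood above Pecam1 (0.667 and 0.645 in Sept2C111A, 0.675 and 0.469 in wild type).

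Of the length-scaled sum over the 7 genes, Icam1 held 54% in Sept2C111A libraries (50.6% to 57.2%) and 61.9% in wild-type libraries (61.4% to 62.5%). Selplg held 32.1% in Sept2C111A libraries (29.9% to 35.2%) and 24% in wild-type libraries (23.4% to 25.1%). Neither pair of ranges overlapped, though shares of 1 sum are bound to each other. Within a library, the ratio of Icam1 to Selplg CPM was 2.02, 2.03, 1.79 and 1.57 in Sept2C111A libraries 1 to 4 and 2.84, 2.68, 2.92 and 2.90 in wild-type libraries 1 to 4. This ratio does not depend on how libraries are scaled, and it was chosen after the values were seen.

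**Figure D4:**
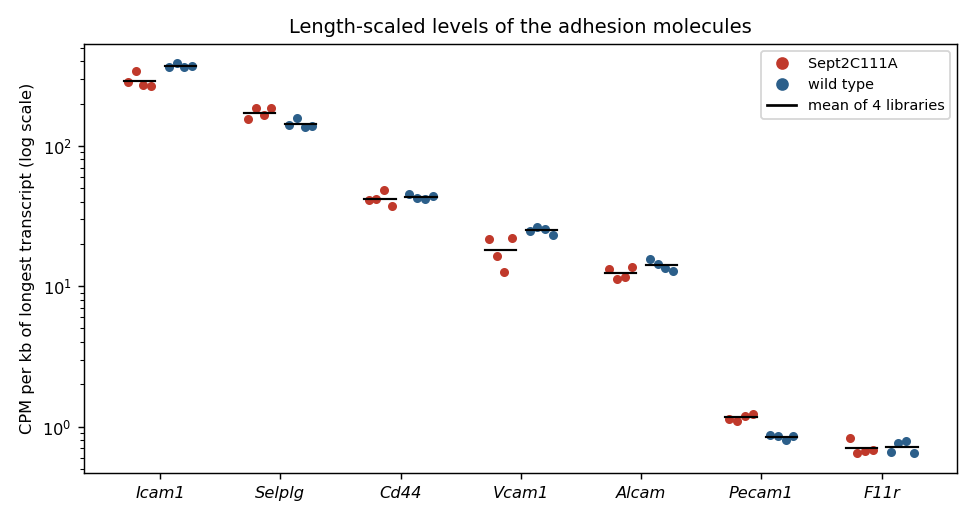
Level of each gene as CPM per kb of its longest transcript (log scale), 4 Sept2C111A libraries (red) left of 4 wild-type libraries (blue), with black lines for means. Icam1 and Selplg lie above 100 in every library and Pecam1 and F11r near 1.

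The genes around these 7 were read from lists of the same adhesion systems, drawn up with earlier results of these data known. The 6 lists together held 84 genes, of which 67 were tested. Of these, 2 were called higher and 4 lower, 8.96% against 6.46% of all tested genes, and the median log2 fold change was -0.16. Among 28 immunoglobulin-type relatives, 20 were tested, 0 were higher and 1 was lower. That 1 was Emb, which encodes embigin, a chaperone of monocarboxylate transporters that also promotes cell adhesion. It averaged 38.6 ± 1.91 CPM in Sept2C111A against 46.7 ± 3.28 CPM in wild type (log2 fold change -0.27, adjusted p 0.0429 in edgeR), and was past the threshold in 10 of 20 alternatives (adjusted p 0.00948 to 0.352). Icam4 and Icam5 lie directly downstream of Icam1 on chromosome 9, at 21029432 to 21030596 and 21032038 to 21039036. Icam4 had 0.331 to 0.848 CPM in Sept2C111A against 0.233 to 0.525 CPM in wild type (adjusted p 0.68 in edgeR), and Icam5 1.09 to 1.75 CPM in Sept2C111A against 1.24 to 1.91 CPM in wild type (adjusted p 0.453).

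Of 9 selectins and other selectin ligands, 4 were tested and none was called. No list member was nearer to the threshold than Podxl2 (adjusted p 0.0657 in edgeR). The most abundant, Glg1, which encodes the E-selectin ligand ESL-1, averaged 226 ± 8.90 CPM in Sept2C111A against 224 ± 5.50 CPM in wild type. PSGL-1 binds selectins only after glycosylation and sulfation, and all 11 genes listed for those steps were tested, 1 higher and 1 lower. Gcnt1, the enzyme that builds the branched core 2 O-glycan, averaged 13.7 ± 0.508 CPM in Sept2C111A libraries against 10.1 ± 0.802 CPM in wild-type libraries (log2 fold change 0.44, SE 0.0842, adjusted p 0.0137 in edgeR). St3gal3, a sialyltransferase that acts on galactose ends, had 44.8, 36.9, 34.9 and 34.5 CPM in Sept2C111A libraries 1 to 4 against 60.4, 58.2, 55.6 and 59.7 CPM in wild-type libraries 1 to 4 (log2 fold change -0.63, SE 0.0864, adjusted p 0.00211). Neither gene overlapped between the genotypes, and both kept their call in 19 of 20 alternatives, the exception being the stromal covariate. In that fit the log2 fold change was 0.565 for Gcnt1 (SE 0.121, adjusted p 0.0775) and -0.53 for St3gal3 (SE 0.131, adjusted p 0.136). The other 9 were not called, among them Fut7, the fucosyltransferase of leukocyte selectin ligands, and the tyrosylprotein sulfotransferase genes Tpst1 and Tpst2. The sialyltransferase genes St3gal4 and St3gal6 were also among these 9, with log2 fold changes of 0.07 and -0.05 (adjusted p 0.698 and 0.955 in edgeR). Which of the 11 act on PSGL-1 in these cells was not tested, and its glycans were not measured.

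In the hyaluronan system, where CD44 is a main receptor, 12 of 16 genes were tested, 1 higher and 1 lower. Cemip2, a cell surface protein of hyaluronan breakdown, averaged 10.4 ± 1.70 CPM in Sept2C111A against 15.0 ± 1.03 CPM in wild type (log2 fold change -0.52, SE 0.116, adjusted p 0.0256 in edgeR). Its call was lost without Sept2C111A libraries 2 and 3 (adjusted p 0.0758) and, with the stromal covariate, at a log2 fold change of -0.21 (adjusted p 0.628). Single libraries mattered too: leaving out wild-type 1, 2 or 3, or Sept2C111A 2, gave 0.0608 to 0.089. Stab2, a scavenger receptor for hyaluronan, averaged 4.98 ± 0.856 CPM in Sept2C111A against 3.33 ± 0.360 CPM in wild type (log2 fold change 0.58, SE 0.155, adjusted p 0.0486). Its groups overlapped through Sept2C111A library 2, at 3.71 CPM, and its call held in 8 of 20 alternatives (adjusted p 0.0165 to 0.174). Stab1, the most abundant gene of the list, had 992 ± 106 CPM in Sept2C111A against 1150 ± 12.2 CPM in wild type and was not called (adjusted p 0.136).

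Linker proteins of the ezrin, radixin and moesin family tie CD44, PSGL-1 and ICAM-1 to actin, and proteases shed their outer parts. Of 10 such genes, 1 was called lower and 0 higher. Ezr, which encodes ezrin, had 107, 94.1, 94.5 and 116 CPM in Sept2C111A libraries 1 to 4 against 137, 129, 140 and 130 CPM in wild-type libraries 1 to 4 (log2 fold change -0.38, SE 0.0777, adjusted p 0.0185 in edgeR). Its libraries 2 and 3 were the lowest, as for Vcam1, and its fold change was -0.26 without them (adjusted p 0.0531) and -0.15 with the stromal covariate (adjusted p 0.582). Leaving out Sept2C111A library 2, wild-type library 1 or wild-type library 3 gave 0.0615 to 0.0783. Moesin RNA (Msn) was not called, at 950 ± 108 CPM in Sept2C111A against 1040 ± 43.6 CPM in wild type. Subunits of integrins that bind some of these 7 molecules had 0 of 10 genes called by edgeR and a median log2 fold change of -0.34. Itgb1, the most abundant, averaged 556 ± 48.2 CPM in Sept2C111A against 629 ± 27.4 CPM in wild type (adjusted p 0.169).

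Icam1 was measured beside 17 other genes that TNF induces through NF-κB. Of these, 6 were called lower and 0 higher, 35.3% against 6.46% of all tested genes, with a median log2 fold change of -0.28. The list was drawn up with earlier results of these libraries known, so its direction is not independent evidence. Nfkbia, whose promoter window is shown above beside that of Icam1, averaged 465 ± 21.6 CPM in Sept2C111A against 605 ± 18.0 CPM in wild type (log2 fold change -0.38, SE 0.0604, adjusted p 0.0051 in edgeR). Tnfaip2 had a log2 fold change of -0.47, Ccl5, a chemokine gene, one of -0.88 and Nfkbie, another inhibitor of NF-κB, one of -0.27. The other called genes were Tnfaip3 and Ccl2. The stromal markers were lower in the same libraries, and with them as a covariate 0 of the 17 were called, while the log2 fold changes of Nfkbia, Tnfaip2, Ccl5 and Nfkbie were -0.38, -0.50, -1.29 and -0.33. With wild-type library 1, 3 or 4 left out, 2 of the 17 were called, and 3 with wild-type library 2 left out. Without Sept2C111A library 1, 2, 3 or 4 the count was 7, 4, 6 and 9. Over all tested genes, 0.498% were called with the covariate. Leaving out 1 wild-type library gave 2.12% to 3.77%, and leaving out 1 Sept2C111A library 2.86% to 16.5%. The part of NF-κB in the differences of these 17 genes was not tested.

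**Figure D5:**
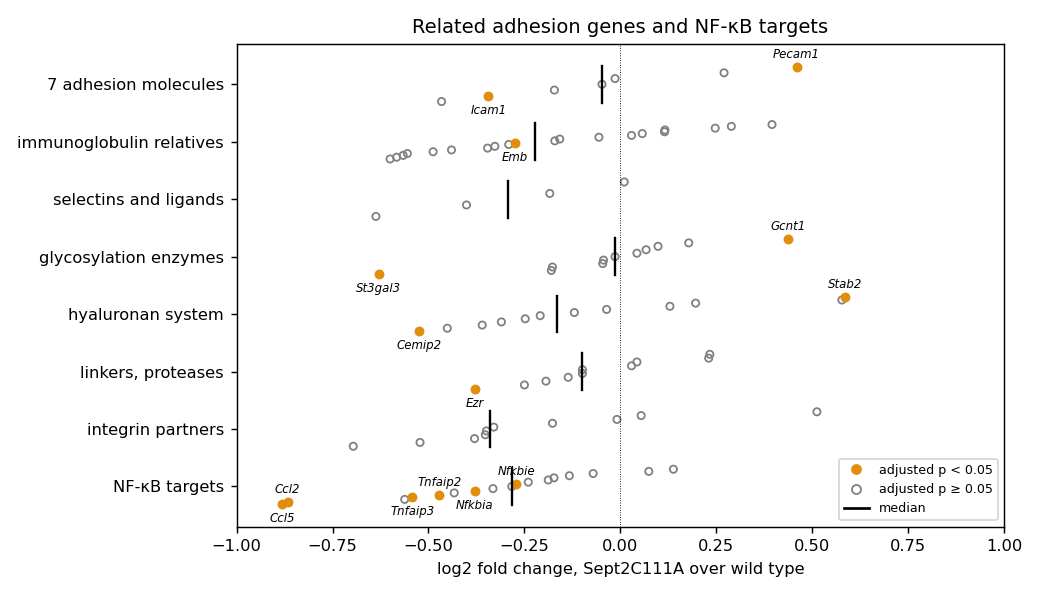
Log2 fold change (x axis, Sept2C111A over wild type) of every tested gene in the set of 7, in the 6 lists of related adhesion genes and among NF-κB targets, 1 circle per gene, orange and named where the adjusted p was under 0.05, with black lines for medians. The NF-κB targets hold 6 called genes, all lower, and the integrin partners and selectins none.

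Macrophage markers were high in both genotypes. The 12 listed summed to 22070 to 24170 CPM in Sept2C111A libraries and 24380 to 26130 CPM in wild-type libraries, while their mean log2 CPM overlapped, at 9.01 to 9.18 in Sept2C111A and 9.03 to 9.10 in wild type. Of the 12, 6 had a positive and 6 a negative log2 fold change. Fcgr1, the Fc receptor CD64, was the 1 called, at 193 ± 39.9 CPM in Sept2C111A against 84.9 ± 11.3 CPM in wild type (log2 fold change 1.18, adjusted p 0.00109 in edgeR). Lyz2, the most abundant, averaged 12400 ± 897 CPM in Sept2C111A against 14400 ± 498 CPM in wild type (adjusted p 0.12 in edgeR). Smooth muscle markers, of which Acta2 was the most abundant, summed to 669.8 to 1029 CPM in Sept2C111A against 1136 to 1517 CPM in wild type. Of the 4 tested, 2 were called lower, where 3.03% of all tested genes were. Granulocyte, dendritic cell and lymphocyte markers summed to 14.4 CPM at most in any library. The most abundant of each were Mmp8, Zbtb46 and Cd79b, and none of these was called. The part of these cell types in the differences of the 7 genes was not tested. Septin2, the edited gene, averaged 188 ± 18.7 CPM in Sept2C111A against 226 ± 7.43 CPM in wild type and did not pass (adjusted p 0.0627 in edgeR); gene counts do not show the edited codon.

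The profile of each gene over the 8 libraries was compared with every tested gene by the root-mean-square (RMS) difference of centred log2 CPM. Nearest to Icam1 were Sema4a, Foxp4 and Rasgef1b (RMS 0.0655 to 0.0679, where the profile of Icam1 itself has a root-mean-square size of 0.204). Nearest to Vcam1 were Dst, Zfp469 and Ust (0.0564 to 0.0713, against 0.342). For Pecam1 they were Hpgds, Cerk and Lpxn (0.0539 to 0.059, against 0.229), and for Selplg Ranbp10, Irf9 and Sash3 (0.0387 to 0.0515, against 0.166). Alcam lay nearest to Mmp19, Khdrbs1 and Runx1, Cd44 to Eif2b5, Lrrfip2 and Eif4e2, and F11r to Gmcl1, Gga2 and Cul2. Among the 7 themselves the closest pair was Selplg and Pecam1, at an RMS difference of 0.137, so no member was among the 3 nearest genes of another.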

How the data were processed

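The authors deposited expected counts for each gene symbol, in which a read that matches several genes is shared among them. Bowtie2, RSEM 1.3.1, DESeq2 1.4.5 and the build mm10 are listed, without their roles, in the submitters' processing notes. Per the labels' protocols, mRNA was captured with oligo(dT). Annotation, strandedness and filters: not given in the sources used here.

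After rounding to whole numbers, libraries held 19543973 to 21288521 counts in Sept2C111A and 20662969 to 20827177 in wild type. Genes were filtered with filterByExpr (minimum count 10), scaled by TMM and tested with edgeR 4.0.16 in R 4.3.3 (quasi-likelihood F test, two-sided, genotype as the only term, adjusted p under 0.05). The SE is the fold change over the square root of F. The 20 alternatives changed the scaling, the filter, the tool (DESeq2 1.42.0, limma 3.58.1), the terms or the libraries. Every pair of libraries differed by more than sampling noise (chi-square per gene 3.87 or more, where noise alone gives 1).

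The 7 genes, the lists and the tests were chosen with earlier results of these data known. From each related list, up to 4 called genes with the smallest adjusted p were named, or the most abundant one where none was called; from each marker list, the most abundant; and the 3 genes nearest in profile to each of the 7. Tnfaip3, Ccl2, Icam4, Icam5, Podxl2, Fut7, Tpst1, Tpst2, Stab1, Msn, Kdr, Emcn, Cdh5, Tek, Gp9 and Fcgr1 were named after their values were seen. So were St3gal4 and St3gal6. Sequences and gene coordinates are from RefSeq and GENCODE M21 on GRCm38, the mm10 build.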

Additional observations from a re-analysis of the deposited data

Results flagged for a closer look

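Among 4 libraries of a genotype, 2 values stood apart from the other 3 by Dixon's test at its 95% critical value. F11r was at 2.08 CPM in Sept2C111A library 1, against 1.64 to 1.70 CPM in the other 3 Sept2C111A libraries, a difference of 44 reads against 31 to 36. Stab2 was at 3.71 CPM in Sept2C111A library 2, against 5.24 to 5.53 CPM in the others. Of 40 gene and genotype groups examined, chance alone would place about 1 in 20 beyond this value.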

How the results depend on the processing

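The whole comparison called 805 genes with edgeR, 1450 with DESeq2, 1343 with limma voom and sample weights, 494 with the replicate block, 62 with the stromal covariate, 492 without Sept2C111A libraries 2 and 3, and 266 (without wild-type library 3) to 2077 (without Sept2C111A library 4) with 1 library left out. Of the 7 genes, 1 was called higher. That count was 2 with DESeq2 and with limma voom and sample weights, and 0 with library totals, no filter, the replicate block, the stromal covariate, the 20 most abundant genes left out of library size, or without Sept2C111A libraries 2 and 3. The count called lower, 1, was 2 with DESeq2 and with limma voom and sample weights and 0 with the stromal covariate. With 1 library left out these counts ran from 0 to 1 and from 0 to 2.

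Of the 67 related genes tested, 2 were called higher. That count was 4 with DESeq2, 5 with limma voom and sample weights, 1 with upper-quartile factors, library totals, limma voom, the replicate block or the 20 most abundant genes left out, and 0 with the stromal covariate. The 4 called lower became 7 with DESeq2, 0 with the stromal covariate and 1 without Sept2C111A libraries 2 and 3. With 1 library left out the ranges were 1 to 4 and 1 to 10. The causes were not tested.

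Some uncalled log2 fold changes near 0 turned sign. F11r was 0.049 with limma voom and sample weights, 0.122 with the stromal covariate, 0.074 without Sept2C111A libraries 2 and 3 and -0.1 to 0.039 with 1 library left out. Cd44 ran from -0.12 to 0.013 with 1 library left out, and Alcam was 0.049 with the stromal covariate. Glg1 was -0.002 with upper-quartile factors, -0.046 with library totals, -0.003 with limma voom and sample weights, -0.056 with the stromal covariate, -0.023 without Sept2C111A libraries 2 and 3, -0.011 with the 20 most abundant genes left out and -0.006 to 0.036 with 1 library left out.

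The replicate numbers did not pair the genotypes, since same-numbered libraries correlated at -0.237 to 0.137 in their deviations from the group means. With the replicate block, Icam1 had an adjusted p of 0.0489 and Pecam1 one of 0.112 in edgeR. At 31 to 90 reads a library, F11r and Pecam1 are limited by depth.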

Other observations

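Proteases that shed adhesion molecules did not pass the test. Adam8 averaged 1050 ± 52.6 CPM in Sept2C111A libraries against 891 ± 24.4 CPM in wild-type libraries, with no overlap (adjusted p 0.053 in edgeR). Adam17, the sheddase of TNF, averaged 374 ± 38.6 CPM in Sept2C111A against 445 ± 28.2 CPM in wild type, also with no overlap (adjusted p 0.0952). Mmp14, which cuts CD44, averaged 266 ± 14.6 CPM in Sept2C111A against 305 ± 20.2 CPM in wild type, again with no overlap (adjusted p 0.113). Adam10 averaged 132 ± 8.82 CPM in Sept2C111A against 129 ± 9.12 CPM in wild type, with overlap (adjusted p 0.84). These genes were picked after their values were seen.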
